A study of Mus musculus with 7 samples.

Results

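Cholesterol and fatty acid synthesis genes were examined in the mouse melanoma line B16F10 and in mouse dermal endothelial cells (MDEC), on 7 Affymetrix Mouse Gene 1.0 ST arrays with 1 sample each. A fixed list of 31 genes was taken. It held enzymes of the mevalonate and sterol pathway, genes of SREBP control and sterol transport, and enzymes that make, desaturate and elongate fatty acids. Of these, 30 had a probe set annotated with their symbol alone, out of 19938 genes measured in that way, and Acat2 was not analysed here.

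Parental B16F10 cells and clone A1 carried the label PECAM1− (n = 2). The label PECAM1+ belonged to clones A2, A3, A4 and A5 (n = 4). PECAM1 (CD31) is best known as a junction protein of endothelium, also found on platelets and leukocytes. The labels did not say how the clones were obtained, whether they arose independently, or whether each sample was its own culture. The p-values therefore measure the spread among these samples alone, and it may be technical. All B16F10 samples were grown in DMEM with 10% serum, and MDEC (n = 1) in DMEM with an endothelial growth supplement, so cell type and medium cannot be told apart in any comparison with MDEC. No treatment was given in the labels. In bulk RNA of this kind, fewer expressing cells and less RNA per cell cannot be told apart either.

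Cells build cholesterol from acetyl-CoA through mevalonate, isoprenoid units, squalene and lanosterol. The membrane-bound factors SREBP-1 (Srebf1) and SREBP-2 (Srebf2) switch these genes on. When sterols are scarce, SCAP escorts SREBP from the endoplasmic reticulum to the Golgi, where proteases free its active part, and INSIG holds the complex back when sterols are plentiful. SREBP-2 is best known for sterol genes and SREBP-1c for fatty acid genes, and both work at promoters together with other factors, of which NF-Y binds the letters CCAAT. Much of this control acts on SREBP protein, which an expression array does not measure.

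Promoters are shown for 5 sterol genes with large differences between the B16F10 samples and for a pair of fatty acid genes, because the sterol and fatty acid arms of the list differed in how many genes held these letters. Each line gives the 150 bases before an annotated start site (RefSeq, build GRCm38.p6), written 5′ to 3′ on the gene's strand. Capitals mark CCAAT, its form ATTGG on the other strand, and TCACNCCA, a stretch of the sterol regulatory element, searched on both strands. None of these matches overlapped another of the other kind.
Hmgcs1, chr13:119690201-119690350, plus strand: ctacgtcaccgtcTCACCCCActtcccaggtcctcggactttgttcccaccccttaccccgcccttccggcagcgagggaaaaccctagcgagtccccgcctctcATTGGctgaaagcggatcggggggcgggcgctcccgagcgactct
Idi1, chr13:8885456-8885605, plus strand: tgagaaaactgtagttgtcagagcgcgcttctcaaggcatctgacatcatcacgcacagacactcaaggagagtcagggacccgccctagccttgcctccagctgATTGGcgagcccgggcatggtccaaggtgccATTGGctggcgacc
Cyp51, chr5:4104698-4104847, minus strand: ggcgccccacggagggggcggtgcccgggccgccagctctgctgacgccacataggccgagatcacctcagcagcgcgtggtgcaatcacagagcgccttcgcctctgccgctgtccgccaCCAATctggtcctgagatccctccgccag
Hsd17b7, chr1:169969206-169969355, minus strand: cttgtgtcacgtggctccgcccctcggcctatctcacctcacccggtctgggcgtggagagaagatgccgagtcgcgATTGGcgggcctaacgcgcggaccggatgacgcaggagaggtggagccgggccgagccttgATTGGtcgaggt
Ebp, chrX:8193513-8193662, minus strand: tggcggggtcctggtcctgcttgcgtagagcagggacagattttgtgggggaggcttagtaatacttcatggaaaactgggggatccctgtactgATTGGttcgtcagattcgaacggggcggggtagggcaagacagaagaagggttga
Elovl6, chr3:129532236-129532385, plus strand: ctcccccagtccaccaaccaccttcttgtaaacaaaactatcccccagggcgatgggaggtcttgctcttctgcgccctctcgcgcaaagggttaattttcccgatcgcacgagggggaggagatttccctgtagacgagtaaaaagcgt
Fads2, chr19:10101504-10101653, minus strand: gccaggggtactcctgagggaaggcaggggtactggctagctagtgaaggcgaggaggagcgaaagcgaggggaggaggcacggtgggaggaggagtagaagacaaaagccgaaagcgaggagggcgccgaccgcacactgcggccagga

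A promoter window was found for 23 of the 30 genes, and for none of Fdps, Fdft1, Sqle, Stard4, Scd1, Scd2 and Fads1. Over the 250 bases before the start, CCAAT in either orientation stood in all 5 mevalonate genes with a window (Hmgcs1, Mvk, Pmvk, Mvd and Idi1) and in all 9 squalene and sterol genes (Lss, Cyp51, Tm7sf2, Msmo1, Nsdhl, Hsd17b7, Ebp, Sc5d and Dhcr7). Of all 27025 genes with a window, 37.5% held it, a gene with several windows counting when any of them did. Among the fatty acid genes 1 of 5 held it, Fasn, with 3 matches, while Acly, Acaca, Fads2 and Elovl6 did not. The promoter of Fasn is not printed above, so the fatty acid pair shown is without a match. Of the SREBP control genes 3 of 4 held it, Insig1, Srebf1 and Srebf2, so that 18 of 23 genes did in all. TCACNCCA stood in 3 genes, Hmgcs1, Msmo1 and Srebf2, where 4.2% of all genes held it, and in Hmgcs1 it lay from base -137 to base -130, counted back from the start site. The E-box letters CACGTG stood in Hsd17b7, Sc5d, Dhcr7, Insig1 and Scap (5 of 23), against 6.86% of all genes. A match describes these letters and not a bound site.

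The array medians lay between 6.12 and 6.18 on the log2 scale. Lineage markers separated the cell types: all 8 melanocyte markers were lower and all 9 endothelial markers higher in MDEC than in B16F10, and Pecam1 averaged 11.03 ± 0.03 over the PECAM1+ clones (SD, n = 4), with 5.27 in the parental line and 5.43 in clone A1. Of 6 leukocyte and platelet markers, 2 were also at least 2-fold higher in MDEC: Cd53, a pan-leukocyte gene, by 113-fold, and Cd68, a macrophage gene, by 6.7-fold. Of the others, Ptprc read 4.99, Itgam 4.84 and Cd3e 6.51 in MDEC. Fabp4, an adipocyte and microvascular marker, read 10.22 and the adipocyte gene Adipoq 4.34. The part of leukocyte or adipocyte RNA in the MDEC values was not tested. Clone A1 stood apart from the other B16F10 arrays, where 6.37% of genes differed 2-fold or more from the average of the other 5, against 0.155% to 0.722% for each of those. All 9 cell cycle genes were lower in clone A1 than in parental cells, with a median difference of -3.81 log2 units. Past 2-fold in this direct comparison were 6.84% of all genes and 1 of the 30 listed genes, Elovl6. The summed level of the 9 cell cycle genes on the linear scale was 1436 in clone A1, 16238 to 18264 in the other B16F10 arrays and 2707 in MDEC. All 30 listed genes lay above the median level of all genes in B16F10, with a median level of 9.75 against 6.68. The shares of all genes given beside the counts are not matched for level. Differences below are in log2 units, PECAM1+ minus the sample named, with the standard error of the limma fit. The comparisons with both PECAM1− samples, with parental cells and with clone A1 share the same 4 clones.

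**Figure D1:**
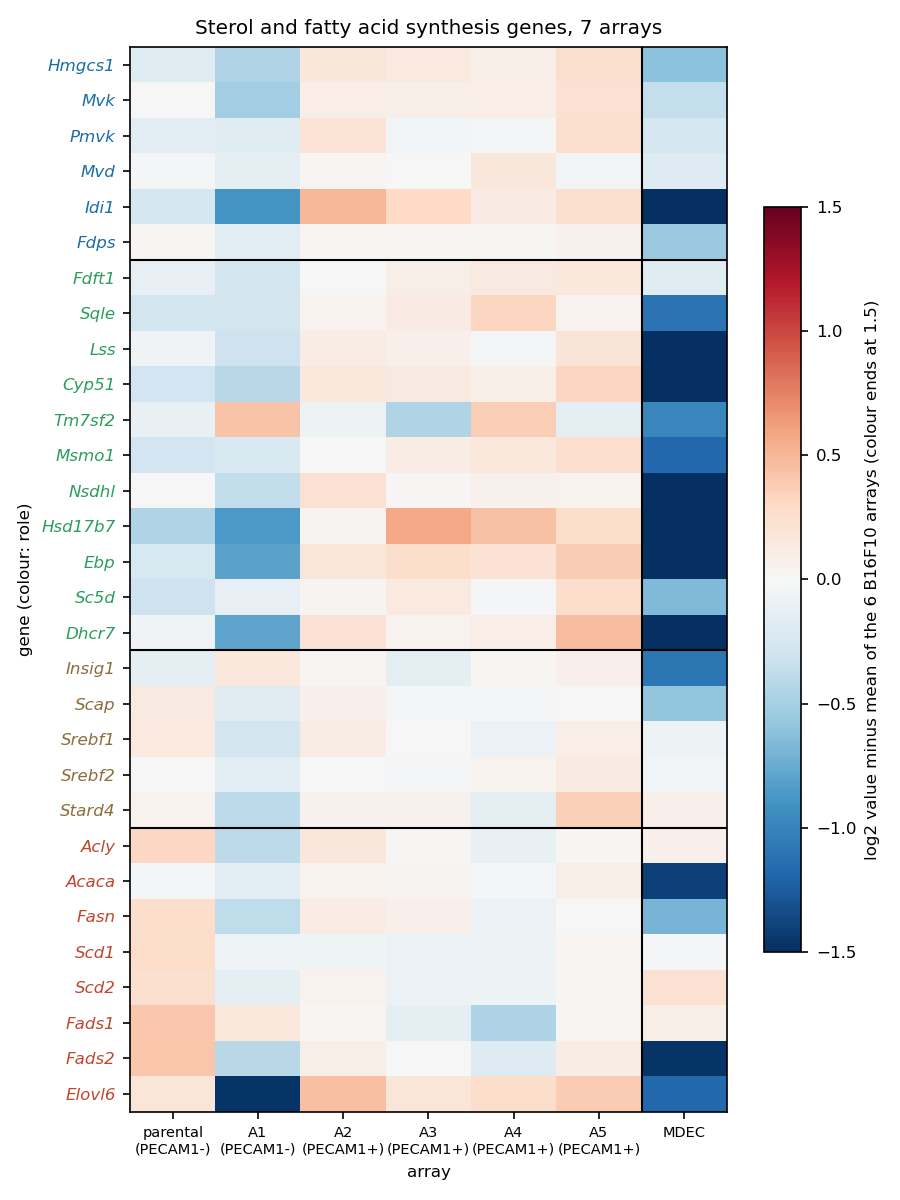
Heat map of 30 genes (rows, names coloured by role) in 7 arrays (columns). Colour gives the log2 value minus the mean of the 6 B16F10 arrays, with red higher and blue lower, and lines separate the mevalonate arm, the squalene and sterol arm, SREBP control, and fatty acid synthesis. Most sterol genes are red in clones A2 to A5 and blue in clone A1 and all are blue in MDEC, Tm7sf2 is highest in clone A1, and several fatty acid genes are red in parental cells.

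Sterol synthesis genes were higher in the PECAM1+ clones than in either PECAM1− sample, by modest amounts. Over the mevalonate and the squalene and sterol arms together, 16 of 17 genes were higher against both PECAM1− samples, with a median difference of 0.38, Tm7sf2 being the exception. Over the whole list 24 of 30 were higher, with a median of 0.26, where 50.4% of all genes were and their median was 0.00. All 4 clones lay above both PECAM1− samples for 15 of the 17, where this held for 7.73% of all genes, although for Fdps the lowest clone matched parental cells to 2 decimals. No gene of the list passed limma at an adjusted p of 0.05 in that comparison, where 0.0100% of all genes did, 0.00502% in each direction (2 of 19938, Pecam1 as higher and Cav1 as lower). At an unadjusted p under 0.05, 10 of the 30 passed, all sterol genes and all higher, against 9.18% of all genes in either direction and 4.08% as higher. Enzymes of a pathway are not independent replicates, so these counts describe the list.

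In the mevalonate arm, Idi1 had the largest difference. It encodes isopentenyl diphosphate isomerase, which makes the isoprenoid unit that starts chain growth. Parental cells read 8.67 and clone A1 8.04, against 9.43, 9.24, 9.06 and 9.18 for clones A2, A3, A4 and A5. The groups did not overlap, and the difference was 0.87 ± 0.21 (limma adjusted p = 0.404). A further probe set for Idi1 gave 0.88.

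Hmgcs1 encodes cytosolic HMG-CoA synthase, which makes the precursor of mevalonate. Parental cells read 9.36 and clone A1 9.09, against 9.71, 9.69, 9.63 and 9.78 in the PECAM1+ clones. The clones lay within 0.15 of each other, all above both PECAM1− samples, and the difference was 0.48 ± 0.11 (limma adjusted p = 0.400). Mvk, the mevalonate kinase gene, differed by 0.38 ± 0.16 and Pmvk, which adds the next phosphate, by 0.27 ± 0.11. Mvd, the decarboxylase gene, averaged 9.18 ± 0.09 over the PECAM1+ clones (SD, n = 4), with 9.11 in parental cells, and its groups overlapped. Fdps, the farnesyl diphosphate synthase gene, showed the smallest difference of this arm, 0.10 ± 0.08. Its values were 10.14 in parental cells and 10.14 to 10.19 in the clones, with clone A1 lower at 9.96.

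In the squalene and sterol arm, Hsd17b7 differed most. It encodes the 3-ketosteroid reductase of cholesterol synthesis, and it read 8.90 in parental cells and 8.49 in clone A1, against 9.40, 9.92, 9.80 and 9.63 in clones A2 to A5. The lowest clone, A2, was 0.50 above parental cells, and the difference was 0.99 ± 0.19 (limma adjusted p = 0.351). Ebp encodes the sterol isomerase that moves the ring double bond. Parental cells read 9.22 and clone A1 8.65, against 9.64, 9.72, 9.67 and 9.83 in the clones, which formed a narrow band above both, with a difference of 0.78 ± 0.17 (limma adjusted p = 0.400). Cyp51, the lanosterol demethylase gene, was at 9.43, 9.30 and 9.88, 9.86, 9.81 and 10.04 in the same order. Here parental cells and clone A1 were close to each other and the clones stood apart from both, by 0.53 ± 0.10 (limma adjusted p = 0.351).

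**Figure D2:**
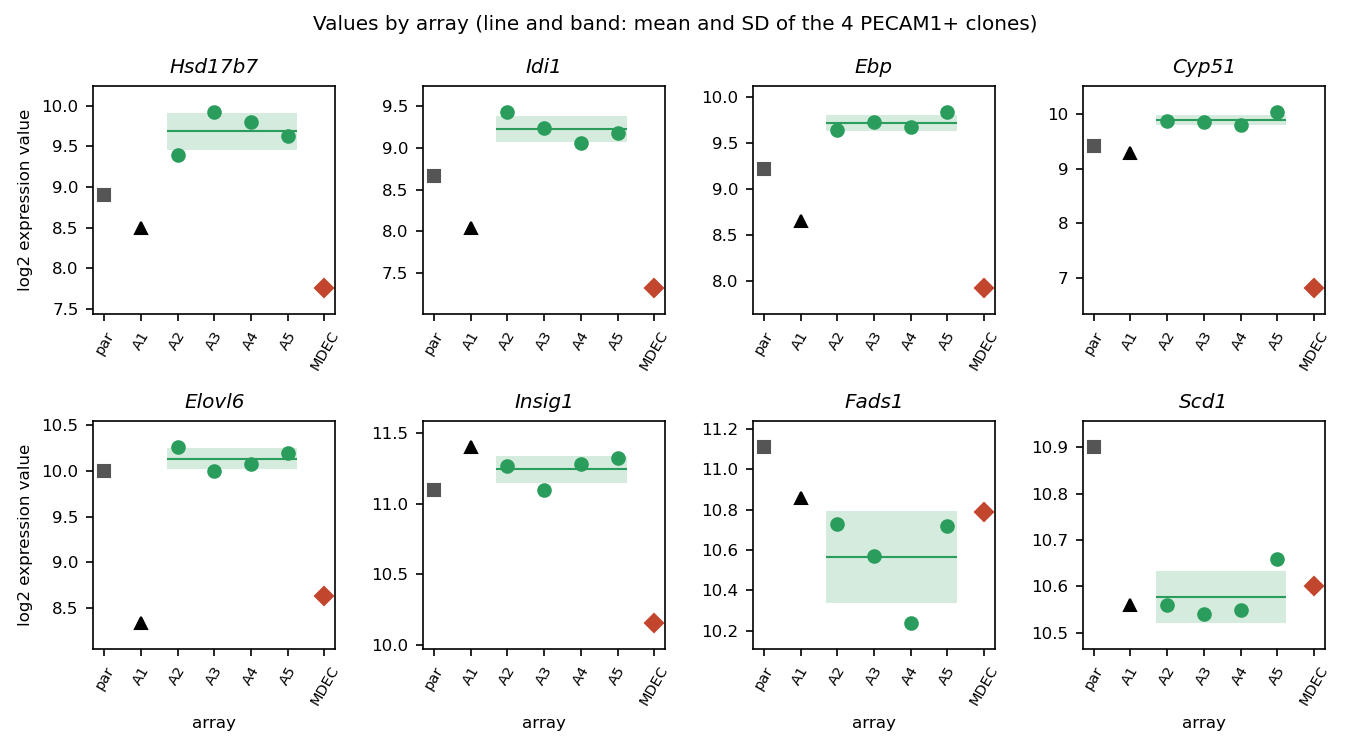
Log2 expression values of 8 genes in each array, with parental cells (square), clone A1 (triangle), clones A2 to A5 (circles) and MDEC (diamond). The line and band are the mean and SD of the 4 PECAM1+ clones, and the vertical axes differ. Hsd17b7, Idi1, Ebp and Cyp51 are higher in the clones than in both PECAM1− arrays, Elovl6 is low in clone A1 alone among B16F10, and Fads1 and Scd1 are highest in parental cells.

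The other enzymes of this arm were higher as well, apart from Tm7sf2. Fdft1 (squalene synthase) differed by 0.29 ± 0.08 and by 0.40 in a further probe set. Sqle, squalene epoxidase, was at 9.84 in both PECAM1− samples and at 10.16, 10.23, 10.43 and 10.17 in the clones, a difference of 0.41 ± 0.10. Msmo1, the methylsterol monooxygenase gene, was at 10.30 and 10.35 against 10.58 to 10.83 in the clones (0.38 ± 0.09). For Sqle and Msmo1 the PECAM1− pair agreed closely, so parental cells and clone A1 gave nearly the same difference. Dhcr7, whose product makes cholesterol from 7-dehydrocholesterol, differed by 0.63 ± 0.24, Sc5d by 0.33 ± 0.12, and Lss (lanosterol synthase) and Nsdhl by 0.27 each. Tm7sf2, a sterol C14 reductase gene, ran from 6.88 in clone A3 to 7.70 in clone A4, with 7.22 in parental cells and 7.76 in clone A1. Its spread over the clones (0.82) was the widest of the 30 genes, and its groups overlapped.

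The genes of SREBP control and sterol transport did not set the PECAM1+ clones apart from both PECAM1− samples, as most sterol enzymes did. Insig1 is itself a well-known SREBP target. Parental cells read 11.10 and clone A1 11.40, against 11.27, 11.10, 11.28 and 11.32 in clones A2 to A5. Parental cells matched clone A3 as the lowest and clone A1 was the highest, with a difference of -0.01 ± 0.11 (limma adjusted p = 0.983). Srebf2 was at 9.82, 9.67 and 9.87 ± 0.07 (SD, n = 4), Srebf1 at 8.81, 8.39 and 8.69 ± 0.09, and Scap at 9.90, 9.59 and 9.79 ± 0.04, in parental cells, clone A1 and the PECAM1+ clones. Their differences were 0.13 ± 0.09, 0.09 ± 0.14 and 0.04 ± 0.11. Stard4, a cytosolic sterol carrier gene, differed by 0.25 ± 0.19, and ran from 8.41 in clone A4 to 8.91 in clone A5. In all 5 of these genes the groups overlapped, where 16.4% of all genes did not overlap, in either direction. Relative to clone A1 alone, 4 of the 5 were higher in the PECAM1+ clones, all but Insig1. The median difference was 0.21, and 51.9% of all genes were higher.

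**Figure D3:**
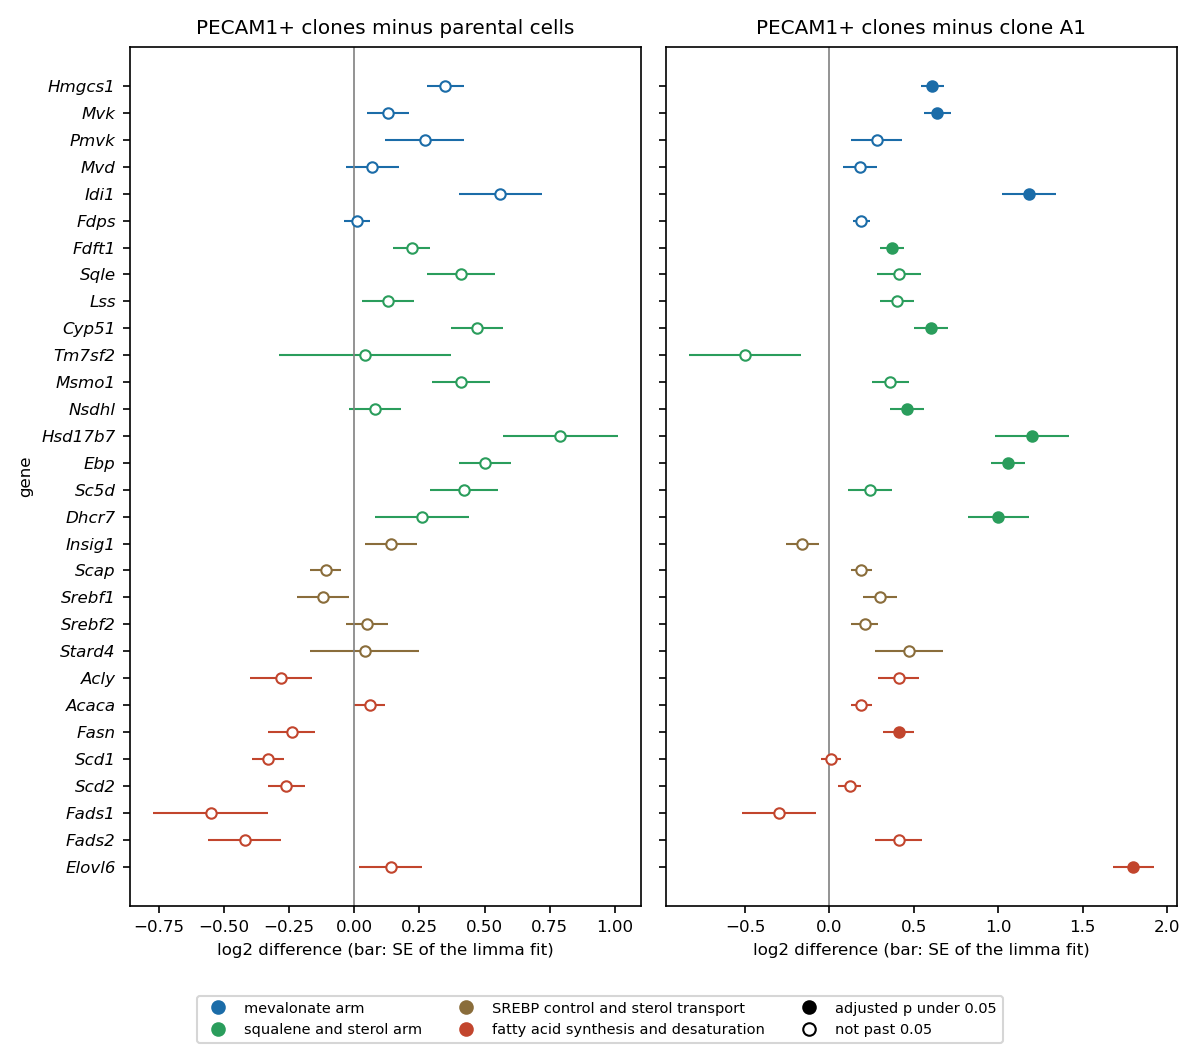
Log2 differences of 30 genes, PECAM1+ clones minus parental cells (left) and minus clone A1 (right), with bars for the SE of the limma fit. Filled points passed an adjusted p of 0.05, and colours give the role. Sterol genes lie to the right of 0 on both sides except Tm7sf2 against clone A1, and 6 of 8 fatty acid genes lie to the left of 0 against parental cells.

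Against parental cells alone, the sterol and the fatty acid genes lay mostly on opposite sides of 0. Parental cells are 1 array without a replicate, assumed in the fit to vary like the clones. All 17 sterol genes had a positive difference, with a median of 0.27, where 49.0% of all genes were higher, and in 15 of them all 4 clones lay above parental cells, where 20.6% of all genes did. No gene of the list passed limma (0.0100% of all genes did, 0.00502% in each direction, and 13.5% had an unadjusted p under 0.05, 6.78% as higher), while 12 of 30 had an unadjusted p under 0.05. These were 9 sterol genes, all higher, and 3 fatty acid genes, Scd1, Scd2 and Fads2, all lower. Hsd17b7 differed by 0.79 ± 0.22, Idi1 by 0.56 ± 0.16, Ebp by 0.50 ± 0.10 and Cyp51 by 0.47 ± 0.10, or 1.73-fold, 1.47-fold, 1.41-fold and 1.38-fold. Their limma adjusted p ran from 0.187 to 0.283.

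Of the fatty acid genes, 6 of 8 were lower in all 4 clones than in parental cells, where 22.1% of all genes were. They were Acly, Fasn, Scd1, Scd2, Fads1 and Fads2. The PECAM1− clone A1 was below parental cells as well, for all 8 genes, with a median difference of -0.51, where it was below for 9657 of 19938 genes. Parental cells were the highest of the 6 B16F10 arrays for 6 of the 8, against 20.2% of all genes, so the lower values were not particular to the PECAM1+ clones. Fads1, the delta-5 desaturase gene, read 11.11 in parental cells and 10.86 in clone A1, against 10.73, 10.57, 10.24 and 10.72 in clones A2 to A5. It was the 1 gene of the list whose clones lay below both PECAM1− samples, as 8.68% of all genes did, with differences of -0.42 ± 0.17 from both and -0.55 ± 0.22 from parental cells (limma adjusted p = 0.537 and 0.426). Fads2, the delta-6 desaturase gene, was at 11.32, 10.49 and 10.99, 10.90, 10.71 and 11.01 in the same order. The clones lay between parental cells and clone A1, with -0.42 ± 0.14 from parental cells and 0.41 ± 0.14 from clone A1.

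The stearoyl-CoA desaturase genes, whose products make monounsaturated fatty acids, gave a similar picture. Scd1 read 10.90 in parental cells and 10.56 in clone A1, against 10.56, 10.54, 10.55 and 10.66 in the clones. Parental cells were the high sample, and clone A1 fell among the clones (-0.33 ± 0.06 from parental cells, limma adjusted p = 0.198). Scd2 was at 12.47, 12.09 and 12.21 ± 0.07 (SD, n = 4), a difference of -0.26 ± 0.07 from parental cells. Acly makes cytosolic acetyl-CoA from citrate and Fasn builds palmitate. They differed from parental cells by -0.28 ± 0.12 and -0.24 ± 0.09, and from clone A1 by 0.41 each. Acaca, which encodes acetyl-CoA carboxylase, differed by 0.06 ± 0.06 and Elovl6, an elongase of saturated chains, by 0.14 ± 0.12 from parental cells.

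**Figure D4:**
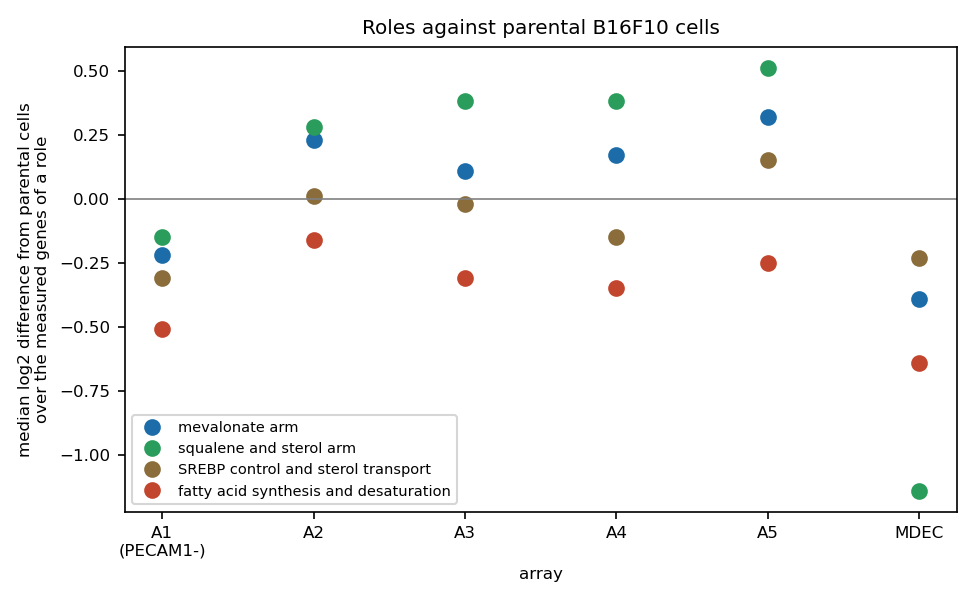
Median log2 difference from parental B16F10 cells over the genes of each role (6 mevalonate, 11 squalene and sterol, 5 SREBP control, 8 fatty acid), for clone A1, clones A2 to A5 and MDEC. In clones A2 to A5 the sterol roles lie above 0 (0.11 to 0.51) and the fatty acid role below 0 (-0.35 to -0.16), and all roles lie below 0 in clone A1 and MDEC.

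Most fatty acid genes lie on a pair of chromosomes that hold 1 of the sterol genes. Acly, Acaca and Fasn lie on chromosome 11, with Srebf1, and Scd1, Scd2, Fads1 and Fads2 on chromosome 19, with Tm7sf2. Elovl6 lies on chromosome 3, with Pmvk and Fdps. Of the 17 sterol genes, 16 lie elsewhere. Among genes above the median level, 87.8% of 352 on chromosome 19 and 78.9% of 874 on chromosome 11 were lower in the PECAM1+ clones than in parental cells, with medians of -0.25 and -0.15. Over the other chromosomes together 45.3% were lower, with a median of 0.02. These were the lowest and the third lowest of 20 chromosome medians, with chromosome 4, at -0.18, between them. Each clone showed the shift on chromosome 19, by -0.18, -0.24, -0.31 and -0.24 in A2, A3, A4 and A5, while clone A1 lay 0.02 from parental cells. In clone A1, Scd1, Scd2, Fads1 and Fads2 still differed from parental cells by -0.34, -0.37, -0.25 and -0.83. On chromosome 11, whose median differed by -0.01 in clone A1, Acly, Acaca and Fasn differed by -0.70, -0.13 and -0.65.

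Set against the median of their own chromosome, 16 of 17 sterol genes were still above it, with a median distance of 0.27, and 6 of 8 fatty acid genes were below it. The median distance of the 8 fatty acid genes was -0.08. The distance was -0.30 for Fads1, -0.18 for Fads2, -0.14 for Acly, -0.09 for Fasn, -0.08 for Scd1 and -0.01 for Scd2. Tm7sf2, 0.04 above parental cells, was 0.29 above the median of its chromosome. The part of the chromosome-wide shift in the lower fatty acid genes was not tested further, and these chromosomes were singled out after the values were seen.

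**Figure D5:**
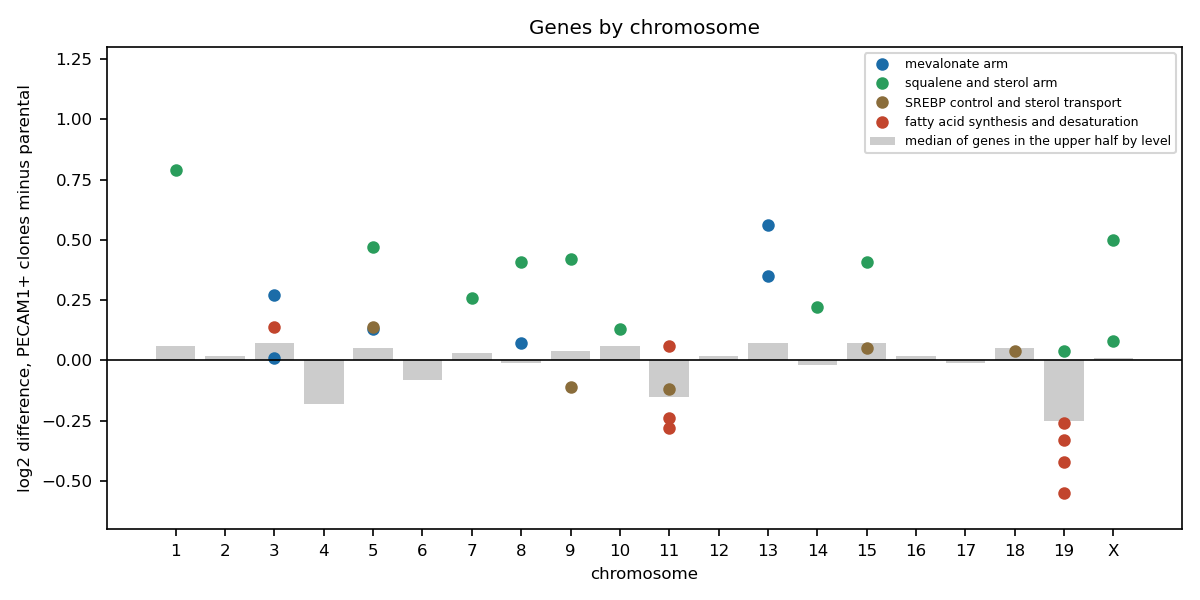
Log2 difference, PECAM1+ clones minus parental cells, by chromosome. Grey bars are medians of genes above the median level on each chromosome, and points are the 30 genes coloured by role. Points on chromosomes 11 and 19, where the bars reach -0.15 and -0.25, are mostly fatty acid genes, and 16 of 17 sterol genes lie above the bar of their chromosome, Fdps being below it.

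Clone A1 had the lowest value of the 6 B16F10 arrays for 24 of the 30 genes, where it was the lowest for 31.6% of all genes. Against clone A1 alone, which is 1 array assumed to vary like the other clones, 11 of 30 genes passed limma, all higher in the PECAM1+ clones, where 20.5% of all genes passed, 9.33% as higher and 11.2% as lower. Without a threshold 27 of 30 were higher, against 51.9% of all genes, and 20 of 30 had an unadjusted p under 0.05, all higher, against 34.2% of all genes, 16.7% as higher. The 11 genes that passed the adjusted threshold were Hmgcs1, Mvk and Idi1 of the mevalonate arm, Fdft1, Cyp51, Nsdhl, Hsd17b7, Ebp and Dhcr7 of the sterol arm, and Fasn and Elovl6. The count was 3 without clone A3 and 6 without clone A5. Mvk, Ebp and Elovl6 kept their call in each fit that left out 1 clone.

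Elovl6 rose most, by 1.80 ± 0.12 or 3.48-fold (limma adjusted p = 0.00489). Clone A1 read 8.34, parental cells read 10.00, and clones A2 to A5 read 10.26, 10.00, 10.08 and 10.20. Clone A1 was the single low B16F10 array, and parental cells lay with the clones. Hsd17b7 rose 2.29-fold, Idi1 2.27-fold, Ebp 2.08-fold and Dhcr7 by 1.00 ± 0.18 log2 units, with limma adjusted p from 0.00776 to 0.0349. Fasn was just under the threshold (0.0498), and Sqle (0.106), Msmo1 (0.0973), Lss (0.0652) and Fdps (0.0622) were above it.

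All 9 cell cycle genes passed as higher in the same comparison, by a median of 3.77, and of other cell type markers 2 of 6 leukocyte and platelet genes (Cd68 and Itga2b) passed as lower, and 1 of 7 fibroblast and mural genes (Col1a2) and 2 of 9 endothelial genes (Pecam1 and Tie1) as higher. Ptprc read 4.99 in clone A1 and in parental cells. Tie1 was at 5.59 in clone A1, 5.87 in parental cells, 5.83 to 5.87 in clones A2 to A5 and 11.41 in MDEC. Col1a2 was at 7.21 in clone A1, 7.91 in parental cells and 7.75 to 8.12 in clones A2 to A5. Against parental cells, the median difference was -0.02 for the cell cycle genes and 0.27 for the 17 sterol genes. The part of the cell cycle difference in the sterol values of clone A1 was not tested.

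Within the PECAM1+ clones, the range over the 4 clones had a median of 0.22 for the list and 0.22 for all genes. No gene of the list ranged 2-fold, as 1.27% of all genes did. All genes include many at lower levels than the listed ones, so these medians are not matched for level. Clone A5 was the highest of the 6 B16F10 arrays for 14 of the 30 genes, against 17.4% of all genes. Clone A4 was above the mean of the other 3 clones for 0 of 8 fatty acid genes and for 8 of the 30 genes in all, where it was for 43.7% of all genes. Clone A3 was above the mean of the others for 7 of the 30, against 52.9% of all genes.

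Other genes of lipid handling were read from fixed lists. In the comparison with both PECAM1− samples 0 of their 60 genes passed limma, as in that with parental cells, and 9 and 17 had an unadjusted p under 0.05, where 9.18% and 13.5% of all genes did. All calls were therefore against clone A1. Of 9 other sterol and isoprenoid genes, 3 rose and 1 fell relative to clone A1, where 9.33% of all genes rose and 11.2% fell. Lbr, which encodes the lamin B receptor with sterol C14 reductase activity, differed by 1.25, and the protein farnesyltransferase subunit genes Fntb and Fnta by 0.78 and 0.38. Cyp27a1, which encodes sterol 27-hydroxylase, differed by -0.80 from clone A1 and by 1.19 from parental cells, where it did not pass (limma adjusted p = 0.0951).

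Of 9 genes of lysosomal and intracellular cholesterol handling, 5 fell relative to clone A1 and 1 rose, against 11.2% and 9.33% of all genes. Osbp, an oxysterol-binding lipid exchange protein gene on chromosome 19, differed by -1.14, Osbpl2 by -0.84 and the endosomal cholesterol carrier gene Stard3 by -0.82. Tmem97, a sterol-regulated membrane protein gene, read 11.69 in parental cells, 10.12 in clone A1 and 11.48 to 11.67 in the clones, a rise of 1.42. The efflux pump gene Abca1, which the liver X receptors induce, was the 1 of 6 efflux genes called, with a difference of -1.58 (9.10 in clone A1, 7.80 in parental cells and 7.23 to 7.81 in the clones). Of 4 genes for SREBP processing none was called, and Insig2 and Mbtps1, the site-1 protease gene, differed by 0.15 ± 0.29 and -0.38 ± 0.12 from both PECAM1− samples.

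Of 22 other lipogenic genes, Elovl5 passed as higher than in clone A1 (0.72) and Acacb as lower (-0.63), so 2 of 22 were called, or 9.09%, against 20.5% of all genes. Of 10 fatty acid oxidation genes, 3 fell relative to clone A1, against 11.2% of all genes. Cpt1a, the gate of mitochondrial fatty acid import, was at 10.13 in clone A1, 9.38 in parental cells and 8.57 to 8.94 in the clones. The clones lay below both, and the gene lies on chromosome 19, where most genes above the median level were lower than in parental cells. Acadvl and Acadl, acyl-CoA dehydrogenase genes, differed by -1.52 and -0.95 from clone A1 and by 0.00 and -0.04 from parental cells.

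MDEC had lower sterol synthesis genes than B16F10. There was 1 MDEC array, so no test was made, and a gene was counted when MDEC differed 2-fold or more from B16F10 (the average of both group means) and also fell beyond every one of the 6 B16F10 arrays. By this rule 13 of 30 genes were lower and 0 higher, where 13.3% of all genes were counted, 6.86% as lower and 6.40% as higher. All 30 listed genes lay above the median level in B16F10, so these shares are not matched for level. All 17 sterol genes were below the B16F10 mean, where 9892 of 19938 genes were, and their median difference was -1.04. Outside the B16F10 range lay 15 of the 17, where 52.9% of all genes did.

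The squalene and sterol arm made up most of the count, with 9 of 11 genes, and the mevalonate arm gave 1 of 6. Cyp51 was at 6.82 in MDEC and 9.30 to 10.04 in B16F10, 6.99-fold lower. Nsdhl was at 7.77 against 9.41 to 10.01 (3.91-fold), Lss at 7.54 against 9.16 to 9.66 (3.68-fold) and Dhcr7 at 7.59 against 8.77 to 10.02 (3.64-fold). Idi1, at 7.32, was the mevalonate gene counted, while Mvd, Pmvk and Mvk differed by -0.17, -0.21 and -0.29. Fdft1, the first enzyme committed to sterols, was at 10.90 in MDEC, inside the B16F10 range.

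Some regulators and fatty acid genes were closer between the cell types. Srebf1 and Srebf2 differed from the B16F10 mean by -0.07 and -0.02, and Insig1 was the 1 regulator counted, at 10.16 against 11.10 to 11.40. Scap, at -0.58, and Fasn, at -0.68, lay outside the B16F10 range without reaching 2-fold. Scd1, Scd2, Fads1 and Acly were all within 0.21 of the B16F10 mean. Acaca and Fads2 were counted as lower, at 7.49 and 9.43. Elovl6 differed by -1.03 in MDEC (8.63) but was not counted, because clone A1 lay lower still, at 8.34. Cell cycle genes were also lower in MDEC, 9 of 9 against the B16F10 mean, and their part in these values was not tested.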

How the data were processed

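Total RNA was labelled with biotin and hybridised to single-colour arrays, per the labels' protocols. Each deposited value is a log2 level for 1 probe set, and Partek is the tool listed per the submitters' processing notes. The sources used here do not give its version or settings, the normalization or the build. No array was centred again. Values ran from 1.39 to 13.5, and 6.86% to 13.1% of genes had identical values in a pair of arrays (0 or 1 of the 30 listed genes), which can make a spread too small. No detection calls were used; precision is limited by the number of arrays.

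Platform annotation gave 1 symbol for 21789 of 35557 probe sets, several for 1621 and none for 12147. The probe set with the highest mean stood for a gene with several (999 genes). Chromosomes came from a gene table of GRCm38.p6, matched by Entrez identifier for 19856 genes, and promoters from RefSeq windows of that build.

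Groups followed the PECAM status in the labels. Differences were fitted with limma 3.58.1 in R 4.3.3 (lmFit, eBayes with trend), two-sided, with Benjamini-Hochberg adjustment over all 19938 genes and a threshold of 0.05. The fit was tested on simulated data. MDEC stayed out of it. Alternatives were quantile normalization, median centring, a filter on low values, all probe sets, robust eBayes, array weights, no trend, and leaving out each array. The members and lists were chosen with earlier results of these data known. Genes of other lists were named where they passed in any fit, at most 4 per list by the size of the difference from both PECAM1− samples, and otherwise the 2 with the highest mean. Genes named in the closing part beyond these were chosen after their values were seen.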

Additional observations from a re-analysis of the deposited data

Results flagged for a closer look

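In 2 of the 30 genes, 1 PECAM1+ clone lay far from the other 3. Mvk was at 9.48 in clone A5 and between 9.34 and 9.36 in the others. Fdps was at 10.19 in clone A5 and between 10.14 and 10.15 in the others. The gap took 0.848 and 0.955 of the range over the clones, above Dixon's critical value for 4 samples. Chance flags about 5% of groups, and both gaps are small beside the differences reported for other genes.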

How the results depend on the processing

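No paired analysis was possible because the labels number the clones and give no replicate number shared between groups. Against both PECAM1− samples, the count over all genes was 7 with quantile normalization, 6 with median centring, 5 with the filter or robust eBayes, and 1 with all probe sets or array weights. Leaving out 1 array, it ran from 1 to 4089, the listed genes called from 0 to 11 (11 without parental cells) and their median from 0.10 to 0.38. Against parental cells it was 8 with median centring, 14 with the filter, 1 with all probe sets, and 0 to 1 leaving out 1 clone. Against clone A1, leaving out 1 clone gave 3 to 9 listed genes and 2108 to 3526 genes in all, and the other settings 8 to 13 listed genes. A 4-fold rule left 1 gene in MDEC, Cyp51. The 2-fold rule counted 9 listed genes with parental cells as the reference and 11 with quantile normalization. It counted 13 with median centring or without clone A1.

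Small differences turned sign. Against both PECAM1− samples, leaving out 1 array, the ranges were -0.50 to 0.04 for Tm7sf2, -0.16 to 0.14 for Insig1, -0.11 to 0.19 for Scap, -0.12 to 0.30 for Srebf1, -0.28 to 0.41 for Acly, -0.24 to 0.41 for Fasn, -0.33 to 0.01 for Scd1, -0.26 to 0.12 for Scd2, -0.42 to 0.41 for Fads2, -0.18 to 0.49 for Insig2, -0.15 to 1.42 for Tmem97, -0.80 to 1.19 for Cyp27a1 and -0.63 to 0.09 for Acacb. Insig1 and Fads2 were at 0.00 with median centring and Fads2 at 0.01 with array weights. Against parental cells, leaving out 1 clone gave -0.10 to 0.17 for Tm7sf2, -0.06 to 0.11 for Stard4, -0.04 to 0.04 for Acadvl, -0.09 to 0.00 for Acadl and 0.00 to 0.04 for Elovl5, and array weights gave -0.03 for Tm7sf2 and 0.01 for Acadvl. Against clone A1, quantile normalization gave 0.00 for Scd1, and leaving out 1 clone -0.01 to 0.03. The causes were not tested.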

Other observations

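Of the 60 genes on the other lipid lists, 4 were at least 2-fold higher in MDEC and outside the B16F10 range. By the same rule 10 were lower. Over all genes, 6.40% were higher and 6.86% lower. Fads3, a desaturase-like gene that neighbours Fads1 and Fads2, was at 10.95 in MDEC and between 6.16 and 6.69 in B16F10. Ch25h, which encodes cholesterol 25-hydroxylase, was at 8.64 in MDEC and at most 4.85 in B16F10. The sterol exporter gene Abcg1 was at 9.33 against 6.12 to 6.22, and Abca1 at 9.60 against 7.23 to 9.10. Lower in MDEC were Elovl7 (6.21 against 8.74 to 9.70), the acetyl-CoA synthetase gene Acss2 (6.10 against 8.07 to 9.39), the lipoprotein receptor gene Scarb1 (8.75 against 10.54 to 11.20) and Smpdl3a (9.38 to 11.01 in B16F10, with a difference of -5.02). There was 1 MDEC array and no test.

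A pair of genes for lysosomal cholesterol release grouped the B16F10 samples in different ways. Lipa, the lysosomal acid lipase gene, read 9.56 in parental cells and 10.38 in clone A1, with 10.20 to 10.48 in the PECAM1+ clones, 0.83 ± 0.13 above parental cells (limma adjusted p = 0.153). It lies on chromosome 19, against the direction of most genes there. Npc1, the lysosomal cholesterol transporter gene, was at 11.11 in clone A1, 10.04 in parental cells and 10.13 to 10.15 in the clones, with a difference of -0.97 ± 0.04 from clone A1 (limma adjusted p = 0.00278).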
